A study of Homo sapiens with 9 samples.

Results

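The L6 family and the EMP family are small groups of membrane proteins whose chain crosses the membrane several times, and 10 of their genes were followed here over 3 human HEK293 cell lines. The L6 genes were TM4SF1, TM4SF4, TM4SF5, TM4SF18, TM4SF19 and TM4SF20, and the EMP genes were EMP1, EMP2, EMP3 and PMP22. They were taken as every non-control probe whose gene name in the scanner files was one of these symbols, which gave 14 probes of the 50598 on the array. The families were selected on results of these same arrays: TM4SF1, TM4SF19 and EMP1 were known to be higher in K57N cells. Their differences between K57N cells and the other lines, and all calls and counts that include them, are therefore a description. The other 7 genes were added by family.

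HEK293 is a line of transformed human embryonic kidney cells. All 9 samples were HEK293 cells stably expressing HA-tagged MEK1, the kinase that activates ERK, as the WT protein, as the RASopathy-associated variant F53S or as the cancer-associated variant K57N, with 3 arrays per line and no untransfected cells among the groups. The cell line label reads HEK293 for all of them, while another label of WT replicates 2 and 3 reads HEK294 and HEK295. The lines were made by puromycin selection and were grown in medium with serum and no further stimulus, so each difference below is also a difference between separately selected lines. Total RNA was hybridised on 1-colour arrays, spread over a pair of slides: the first held the 3 arrays numbered 1, and the second the 6 arrays numbered 2 and 3.

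L6 proteins share the membrane topology of the tetraspanins without their sequence. TM4SF1 is known as a tumour-associated surface antigen that is abundant in endothelium, TM4SF4 and TM4SF5 are best known from gut and liver epithelium, and TM4SF19 from osteoclasts. EMP1, EMP2, EMP3 and PMP22 are related to the claudins. PMP22 is a component of compact myelin in peripheral nerve, and EMP2 is known as a partner of integrins.

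Levels are given as log2 processed signal less the 75th percentile of the same array, so that 0 is that percentile, and a difference of 1 is 2-fold. Levels of different probes cannot be set against each other on this scale. A probe was tested if every array of some line put it well above background, as the scanner software marks it, which held for 25397 probes and 19209 genes, and a gene was called at an adjusted p under 0.05 in limma together with a difference over 2-fold. Of the 10 genes, 6 were tested: TM4SF1, TM4SF19, EMP1, EMP2, EMP3 and PMP22. TM4SF1 and TM4SF19 passed that filter through the K57N arrays alone.

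**Figure D1:**
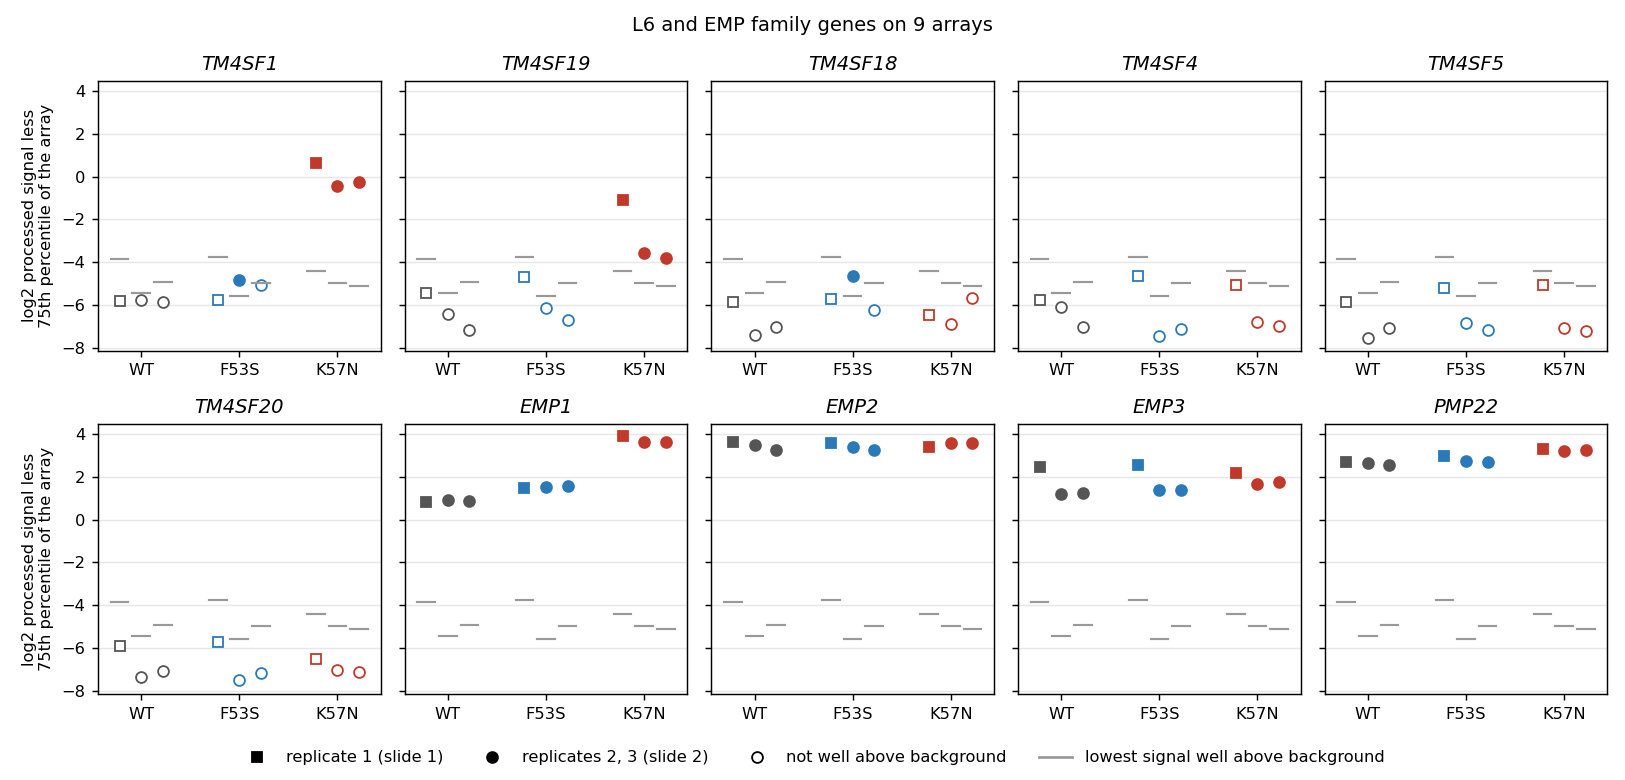
Level of each of the 10 genes (log2 processed signal less the array's 75th percentile) on each of the 9 arrays, by line, for the probe with the highest mean signal. Squares are replicate 1 on the first slide, circles are replicates 2 and 3 on the second, open symbols are signals not well above background, and grey ticks are the lowest signal well above background on that array: TM4SF1 and TM4SF19 leave the background in K57N cells, EMP1 lies highest in K57N cells, and the lines overlap for EMP2.

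K57N cells carried far more TM4SF1 and EMP1 RNA than WT cells or F53S cells, and TM4SF19 was above background in K57N cells alone. PMP22 was 1.55-fold higher in K57N cells than in WT cells, EMP2 differed by less than 2-fold between lines, and the remaining L6 genes gave no signal well above background in any WT or K57N array. Of the 6 tested genes, 2 were called higher and 0 lower in K57N cells against WT cells, where 1.51% of the 19209 genes tested were called higher and 0.739% lower. Against F53S cells the count was again 2 higher and 0 lower, with 0.953% and 0.245% of all genes called. F53S cells against WT cells gave 0 members higher and 0 lower, and 0% of all genes were called in either direction by limma or, among the members, by the methods' t-test. At an unadjusted p under 0.05, whatever the fold, 4 of the 6 were higher in K57N cells than in WT cells, beside 6.15% of all genes, and the same 4 than in F53S cells, beside 4.87%. These were TM4SF1, TM4SF19, EMP1 and PMP22. In F53S cells against WT cells 1 of the 6, EMP1, was higher at this p, beside 0.620% of all genes. The members lower at this p were 0 in all 3 comparisons, beside 7.04%, 5.50% and 0.271% of all genes in K57N cells against WT cells, K57N cells against F53S cells and F53S cells against WT cells. With the slide in the fit TM4SF19 joined TM4SF1 and EMP1 in both comparisons of K57N cells, and the shares of all genes called rose to 2.55% higher and 1.96% lower against WT cells and to 1.88% and 1.1% against F53S cells. These counts are a description, since the rule used the contrast. TM4SF1, TM4SF19 and EMP1 were chosen for being higher in K57N cells, so the shares of all genes beside those counts make no test. In such bulk samples a larger share of cells with a transcript and more transcript per cell cannot be told apart.

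TM4SF1, TM4SF18 and TM4SF4 lie beside each other on chromosome 3, which makes them a natural set of paralogs to compare. The 60-base probes that read TM4SF1, TM4SF4 and TM4SF19 in what reads as coding sequence are given here 5′ to 3′ on the transcript strand, to let the paralogs be compared at the probe; the TM4SF1 probe with the highest signal is described by its position. They lie at chr3:149093343-149093493 (minus strand), chr3:149216588-149216647 (plus strand) and chr3:196050838-196051170 (minus strand) in hg19. The first spans 151 bases of the genome and the last 333 bases, so both cross a splice junction. No base is marked in capitals.
TM4SF1: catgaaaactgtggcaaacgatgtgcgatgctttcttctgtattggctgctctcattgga
TM4SF4: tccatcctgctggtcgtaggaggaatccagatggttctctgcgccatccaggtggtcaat
TM4SF19: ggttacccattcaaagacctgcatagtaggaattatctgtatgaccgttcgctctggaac
Over the 87 pairs of probes from different members, at most 29 of the 60 bases were identical in an ungapped alignment, in the pair of TM4SF4 and TM4SF5, and no shared run was longer than 10 bases.

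The TM4SF1 probe with the highest signal (chr3:149086810-149086869, minus strand) read -5.84, -5.78 and -5.86 in WT cells and -5.75, -4.86 and -5.08 in F53S cells. In K57N cells it read 0.65, -0.46 and -0.26. Every K57N array lay far above every other array, and outside K57N cells only F53S replicate 2 was well above background. The mean level was -5.83 ± 0.04 (SD, n = 3) in WT cells, -5.23 ± 0.47 (SD, n = 3) in F53S cells and -0.03 ± 0.59 (SD, n = 3) in K57N cells. Since no WT array was well above background, the difference has only a lower bound: K57N cells were at least 26.3-fold higher than WT cells, taking as the WT level on each array the lowest signal that was well above background there.

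The bound was at least 22.8-fold on the first slide and at least 28.2-fold on the second. The junction-spanning TM4SF1 probe printed above, for which no WT or F53S array was well above background, gave at least 5.48-fold over WT cells and at least 5.61-fold over F53S cells. With both probes every K57N array lay above every array of the other lines. With 0 WT arrays and 1 F53S array well above background for the first probe, no difference between WT cells and F53S cells was measured.

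The paralogs on either side of TM4SF1 did not come out of the background with it. TM4SF18 (chr3:149040053-149040112, minus strand), whose probe lies 46.7 kb from the nearest TM4SF1 probe, read -5.87, -7.43 and -7.06 in WT cells, -5.74, -4.67 and -6.24 in F53S cells and -6.49, -6.88 and -5.68 in K57N cells. The value -4.67 of F53S replicate 2 was the only one well above background. TM4SF4, 123.1 kb to the other side, read -6.30 ± 0.67 (SD, n = 3) in WT cells, -6.42 ± 1.55 in F53S cells and -6.30 ± 1.07 in K57N cells, with no array well above background. A difference below the floor would not be seen for either gene.

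The next gene beyond TM4SF4 with a tested probe was WWTR1, which encodes the transcriptional coactivator TAZ, with its probe at chr3:149238593-149238652 (minus strand), 21.9 kb from that of TM4SF4. WWTR1 read -1.56, -2.16 and -2.04 in WT cells, -1.48, -2.03 and -1.76 in F53S cells and -0.42, -0.70 and -0.66 in K57N cells. It was called higher in K57N cells than in WT cells, by 1.33 ± 0.22 (SE; limma, adjusted p = 0.0181). Along this stretch of chromosome 3, TM4SF1 and WWTR1 were higher in K57N cells while the TM4SF4 probe between them stayed at background. HPS3, the other tested gene within 250 kb of TM4SF1, differed by -0.12 between K57N cells and WT cells (limma, adjusted p = 0.975). Within 250 kb of the probes of TM4SF19, EMP1, EMP2, EMP3, PMP22, TM4SF5 and TM4SF20, no tested gene outside the families was called in any of the 3 comparisons in the fit without the slide. With the slide in the fit, a pair of genes near TM4SF5 was called: SPNS2, higher in K57N cells than in WT cells by 1.03 (limma, adjusted p = 0.00372), and SMTNL2, lower in K57N cells, where it was not well above background, than in F53S cells (limma, adjusted p = 0.0292). Both are named after their values were seen.

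TM4SF19 lies on the same chromosome but far from that set. Its junction-spanning probe printed above read -5.44, -6.42 and -7.17 in WT cells, -4.68, -6.17 and -6.69 in F53S cells and -1.10, -3.58 and -3.81 in K57N cells. The K57N arrays were all well above background and the other 6 were all not, and K57N replicate 1, on the first slide, was the highest by far. K57N cells were at least 3.76-fold higher than WT cells and at least 3.85-fold higher than F53S cells. Within slides the bound over WT cells was at least 6.80-fold on the first and at least 2.80-fold on the second. The second TM4SF19 probe (chr3:196050483-196050542, minus strand) was likewise well above background in K57N cells alone and gave at least 3.57-fold over WT cells.

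The measured means of TM4SF1 and TM4SF19 in WT cells are readings at background, so differences from them are no estimate of a fold change. Background correction by normexp with an offset of 50 reduced the difference of K57N cells from these readings from 3.52 to 1.03 for TM4SF19 and from 5.80 to 2.95 for TM4SF1.

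TM4SF5, a liver and gut L6 protein, read between -7.57 and -5.07 over the 9 arrays, and TM4SF20 between -7.49 and -5.74. Neither was well above background on any array. The higher readings of both came from replicate 1 of each line, on the slide whose arrays also had the higher floor.

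EMP1, an epithelial membrane protein, was well above background on every array and stood at a separate level in each line. Its probe (chr12:13369562-13369621, plus strand) read 0.82, 0.92 and 0.86 in WT cells, 1.47, 1.53 and 1.56 in F53S cells and 3.89, 3.64 and 3.62 in K57N cells. The 3 lines did not overlap, in the order WT, F53S, K57N. EMP1 was 7.21-fold higher in K57N cells than in WT cells, a difference of 2.85 ± 0.15 (SE), and 4.57-fold higher than in F53S cells, a difference of 2.19 ± 0.15 (SE). By slide the difference from WT cells was 3.07 on the first and 2.74 on the second.

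The smaller step of EMP1 between WT cells and F53S cells was alike in all replicates. The F53S array exceeded the WT array of the same number by 0.65, 0.61 and 0.70, and the fitted difference was 0.66 ± 0.15 (SE) with a 95% confidence interval of 0.32 to 0.99, or 1.58-fold. It did not pass the test over all genes (limma, adjusted p = 1, and adjusted p = 0.168 with the slide in the fit). The WT arrays enter both this comparison and the one that chose EMP1.

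PMP22, the myelin protein of this family, read 2.69, 2.67 and 2.55 in WT cells, 2.99, 2.75 and 2.70 in F53S cells and 3.30, 3.23 and 3.27 in K57N cells with the probe at chr17:15133208-15133267 (minus strand). Every K57N array lay above every other array, and the F53S arrays lay between, the lowest of them at 2.70 beside the highest WT array at 2.69. The difference of K57N cells from WT cells was 0.63 ± 0.15 (SE; 95% confidence interval 0.29 to 0.97), under 2-fold, and did not pass the test (limma, adjusted p = 0.0723). With the slide in the fit the SE was 0.09 and the limma adjusted p was 0.00337. The difference from F53S cells, 0.46, had a limma adjusted p of 0.281 without the slide and 0.0175 with it. The differences from WT cells were 0.61 on the first slide and 0.64 on the second. PMP22 stayed short of the 2-fold limit for a call in every fit.

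The second PMP22 probe lay at chr17:15138537-15138596 (minus strand), and which transcripts it reads was not tested. It was well above background on 6 of the 9 arrays, 2 in each line, and was therefore not tested. Its mean level was -4.53 ± 0.37 (SD, n = 3) in WT cells, -4.95 ± 0.41 in F53S cells and -4.12 ± 0.17 in K57N cells.

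EMP3 differed between slides more than between lines. Its probe (chr19:48832675-48832734, plus strand) read 2.44, 1.19 and 1.23 in WT cells, 2.54, 1.38 and 1.38 in F53S cells and 2.20, 1.68 and 1.75 in K57N cells, so replicate 1 was the highest in each line. The fitted difference of K57N cells from WT cells was 0.26 ± 0.43 (SE), with a 95% confidence interval of -0.72 to 1.23 and a limma adjusted p of 0.955. Within slides the sign differed: -0.24 on the first and 0.51 on the second, where the limma adjusted p over all genes was 0.00862 and the difference still under 2-fold.

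EMP2 differed little between lines. The probe at chr16:10626700-10626759 (minus strand) read 3.61, 3.47 and 3.25 in WT cells, 3.58, 3.39 and 3.27 in F53S cells and 3.39, 3.57 and 3.61 in K57N cells. The lines overlapped, and the difference of K57N cells from WT cells was 0.07 ± 0.17 (SE) with a 95% confidence interval of -0.31 to 0.46 (limma, adjusted p = 0.975). The second EMP2 probe (chr16:10622624-10622683, minus strand) gave -0.10 ± 0.14 (SE), with a limma adjusted p of 0.933. The second probe read lower in every F53S array (2.06 to 2.19) than in every WT array (2.21 to 2.30), a difference of -0.13 ± 0.14 (SE) that did not pass the test (limma, adjusted p = 1). The intervals of K57N cells against WT cells, -0.42 to 0.23 for this probe, leave out a 2-fold change in either direction.

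**Figure D2:**
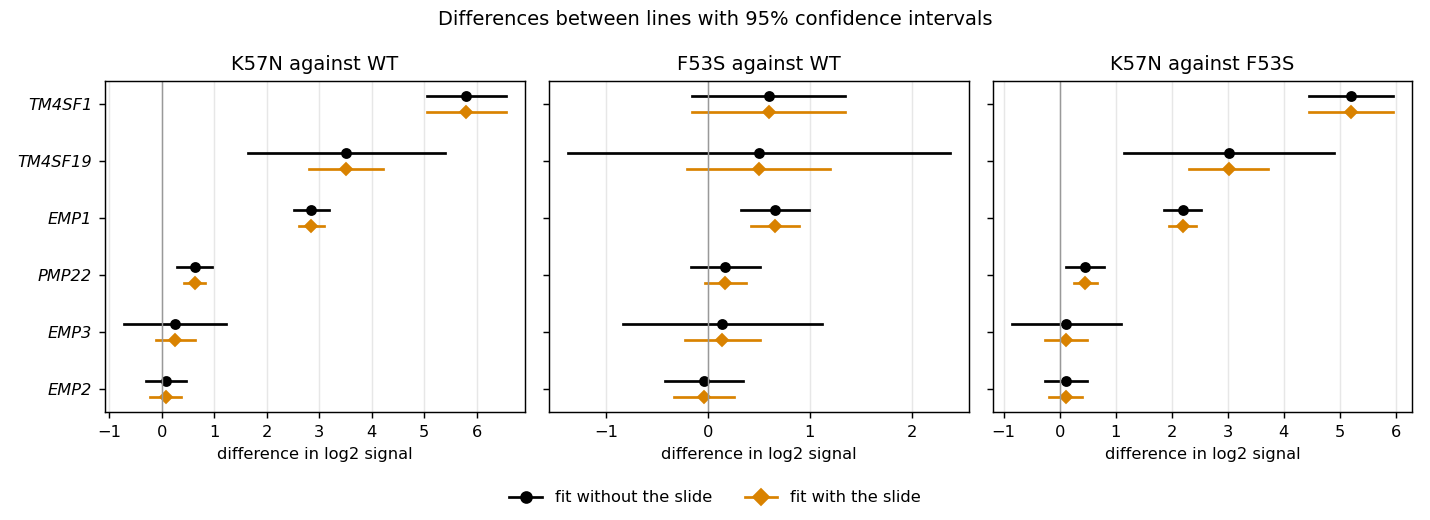
Difference in log2 signal between lines for the 6 tested genes, with 95% confidence intervals, in the fit without the slide (black circles) and with the slide (orange diamonds). TM4SF1, TM4SF19 and EMP1, at 5.80, 3.52 and 2.85, were chosen for the K57N differences, which are therefore a description, those of TM4SF1 and TM4SF19 are taken from readings at background in WT and F53S cells, and adding the slide narrows the intervals of TM4SF19, EMP3 and PMP22 while leaving the differences as they were.

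**Figure D3:**
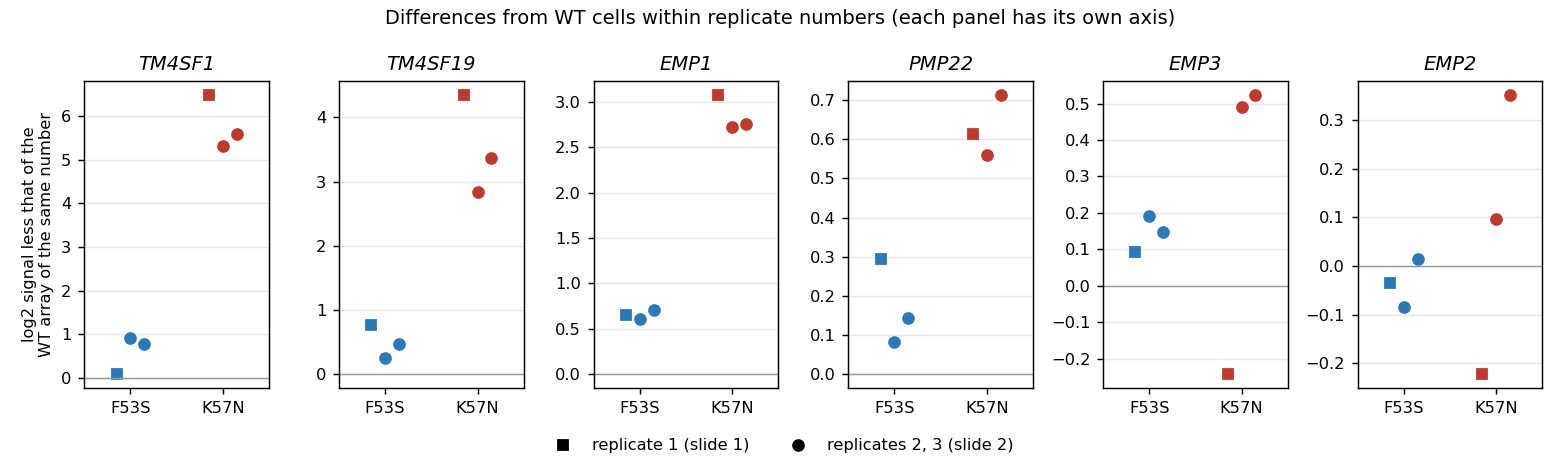
Log2 signal of each F53S and K57N array less that of the WT array with the same replicate number, for the 6 tested genes, each on its own axis. Squares are replicate 1 on the first slide and circles replicates 2 and 3 on the second: EMP1 keeps both steps in all 3 replicates, and the K57N differences of EMP3 and EMP2 fall on both sides of 0.

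Over the 9 arrays, after the mean of each slide was subtracted, the levels of TM4SF1, TM4SF19 and EMP1 followed each other with a Pearson r of 0.98 to 0.99, and PMP22 followed these genes with 0.94 to 0.97. EMP2 and EMP3 followed the first 3 with 0.25 to 0.46. These values describe 9 points that share slides and fall by line, and the first 3 genes were chosen for the same difference. TM4SF1 was well above background on 4 of the 9 arrays and TM4SF19 on 3, so that their likeness to other genes rests on the step to K57N cells and on readings at background elsewhere. Of 19145 genes outside the families, those most like TM4SF1 by this r were KLK6, ERRFI1, BHLHE41, TFPI2 and ABCB1, at 0.997 to 0.999. TM4SF19 was most like FLVCR1, FBXO32, DCBLD2, AGO2 and CBFB, at 0.993 to 0.996, and EMP1 was most like C11orf96, FOSB, FLI1, a probe with no gene symbol and MMP10, at 0.999. KLK6 encodes a secreted serine protease, ERRFI1 an inhibitor of the EGF receptor, FOSB a subunit of AP-1 and MMP10 a matrix metalloproteinase. The differences of these genes between K57N cells and WT cells ran from 0.59 for CBFB to 5.92 for MMP10.

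The wider tetraspan groups are given by counts and medians. Of 33 tetraspanins, 24 were tested in K57N cells against WT cells, and 0 were called higher and 1 lower, beside 1.51% and 0.739% of all genes. TSPAN7, a tetraspanin of neurons, fell by 1.29 (SE 0.14; limma, adjusted p = 0.00325). The 24 differences ran from -1.29 to 0.72 with a median of -0.27, against a median of -0.06 over all genes tested, and 19 of the 24 were below 0 and 5 above it, where 42.9% of all genes tested were above 0. Of 33 claudin-like genes, 12 were tested, none was called in the fit without the slide, and their differences ran from -0.18 to 2.27 with a median of 0.34, above that of all genes. At an unadjusted p under 0.05 and over 2-fold, 1 of the 12 passed, beside 4.52% of all genes. This was the highest, LIM2, a lens membrane protein named here after its value was seen, which was well above background on the 3 K57N arrays and on no other, so that its 2.27 is taken from readings at background. It was called with the slide in the fit. In the fit without the slide, K57N cells against F53S cells gave 0 called tetraspanins and 0 called claudin-like genes by limma, with 1 of each past 2-fold at an unadjusted p under 0.05, as were 3.19% of all genes, and F53S cells against WT cells gave 0 and 0 by either count. With the slide in the fit, limma called 1 of each in K57N cells against F53S cells: LIM2, higher, and TSPAN11, lower, with a difference of -1.30 (adjusted p = 0.0272), a tetraspanin named after its value was seen.

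**Figure D4:**
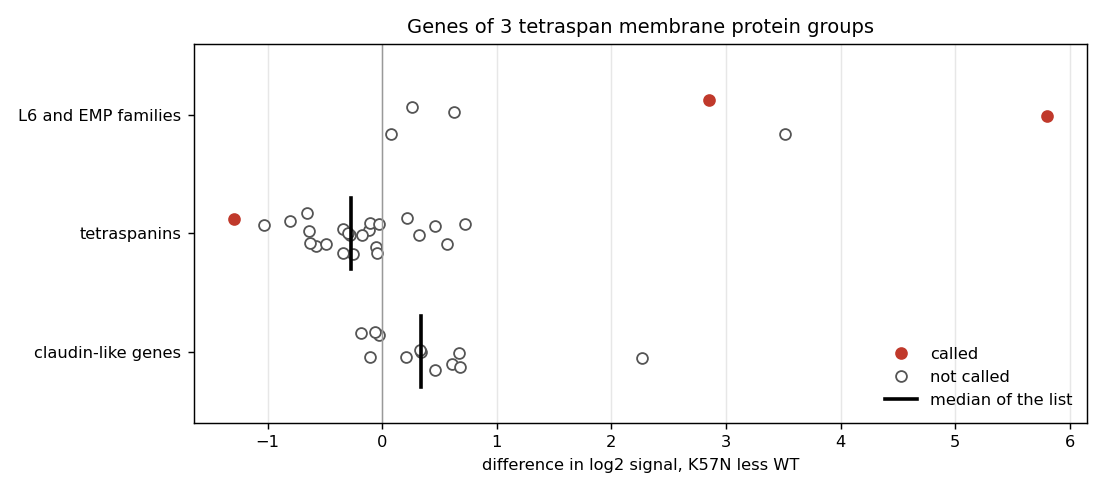
Difference in log2 signal of K57N cells less WT cells for each tested gene of the L6 and EMP families (6), the tetraspanins (24) and the claudin-like genes (12), with called genes filled in red. Black bars are list medians (-0.27 for the tetraspanins and 0.34 for the claudin-like genes): 19 of the 24 tetraspanins lie below 0 (42.9% of all genes tested lie above it), with TSPAN7 called lower, and TM4SF1 and EMP1 are the called family members.

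The 250 bases before the RefSeq start of TM4SF1, TM4SF19 and EMP1 are shown because these are the members chosen for their higher level in K57N cells, and capitals mark matches to any of 8 motifs searched on both strands. The sequences are RefSeq's, in build GRCh38.p14, at chr3:149377650-149377899 (minus strand), chr3:196338389-196338638 (minus strand) and chr12:13196476-13196725 (plus strand), written 5′ to 3′ on the gene's strand.
TM4SF1: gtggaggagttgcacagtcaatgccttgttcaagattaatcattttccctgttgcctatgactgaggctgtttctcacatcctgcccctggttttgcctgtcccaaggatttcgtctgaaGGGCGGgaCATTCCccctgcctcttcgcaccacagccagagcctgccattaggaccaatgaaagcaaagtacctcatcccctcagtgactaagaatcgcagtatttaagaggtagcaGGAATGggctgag
TM4SF19: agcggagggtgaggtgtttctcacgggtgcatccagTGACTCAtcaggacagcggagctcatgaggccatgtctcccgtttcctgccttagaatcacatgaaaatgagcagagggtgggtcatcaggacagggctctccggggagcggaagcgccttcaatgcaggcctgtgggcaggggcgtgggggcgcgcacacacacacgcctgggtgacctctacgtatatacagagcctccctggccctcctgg
EMP1: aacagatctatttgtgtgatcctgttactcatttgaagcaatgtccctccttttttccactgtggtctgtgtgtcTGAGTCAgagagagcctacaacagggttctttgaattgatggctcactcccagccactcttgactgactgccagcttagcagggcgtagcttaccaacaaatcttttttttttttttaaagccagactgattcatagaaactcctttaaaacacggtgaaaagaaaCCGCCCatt
The AP-1 motif TGACTCA, the letters bound by FOS and JUN dimers, stood at positions -214 to -208 of TM4SF19 and, on the other strand, at -175 to -169 of EMP1. TM4SF1 held none, and had GGGCGG (SP1) at -130 to -125 and GGAATG (TEAD) at -122 to -117 on the other strand and at -13 to -8.

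Over the 300-base windows of all 10 genes (13 windows, since EMP3 has 2 and PMP22 has 3), AP-1 was found in TM4SF19 and EMP1 alone, and in 4.95% of the 35116 windows of all genes. The SP1 motif was found in TM4SF1, EMP1, EMP2, EMP3 and PMP22, and in 45% of all windows. The TEAD motif was found in TM4SF1 and TM4SF18 (14% of all windows), AGGAAG (PEA3) in TM4SF5, TM4SF18, TM4SF20 and EMP3 (33.6%), GCGNGGGCG (EGR1) in EMP2 and PMP22 (9.43%) and the TATA box motif, TATAAA, in TM4SF4 and EMP3 (11.5%). TGACGTCA (CREB) and CCGGAAG (ETS) were in none of the 13 windows, and in 1.85% and 10.3% of all windows. An EGR1 match can overlap an SP1 match, as it did in PMP22. A match gives the letters only, and the absence of one says nothing of the factor.

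**Figure D5:**
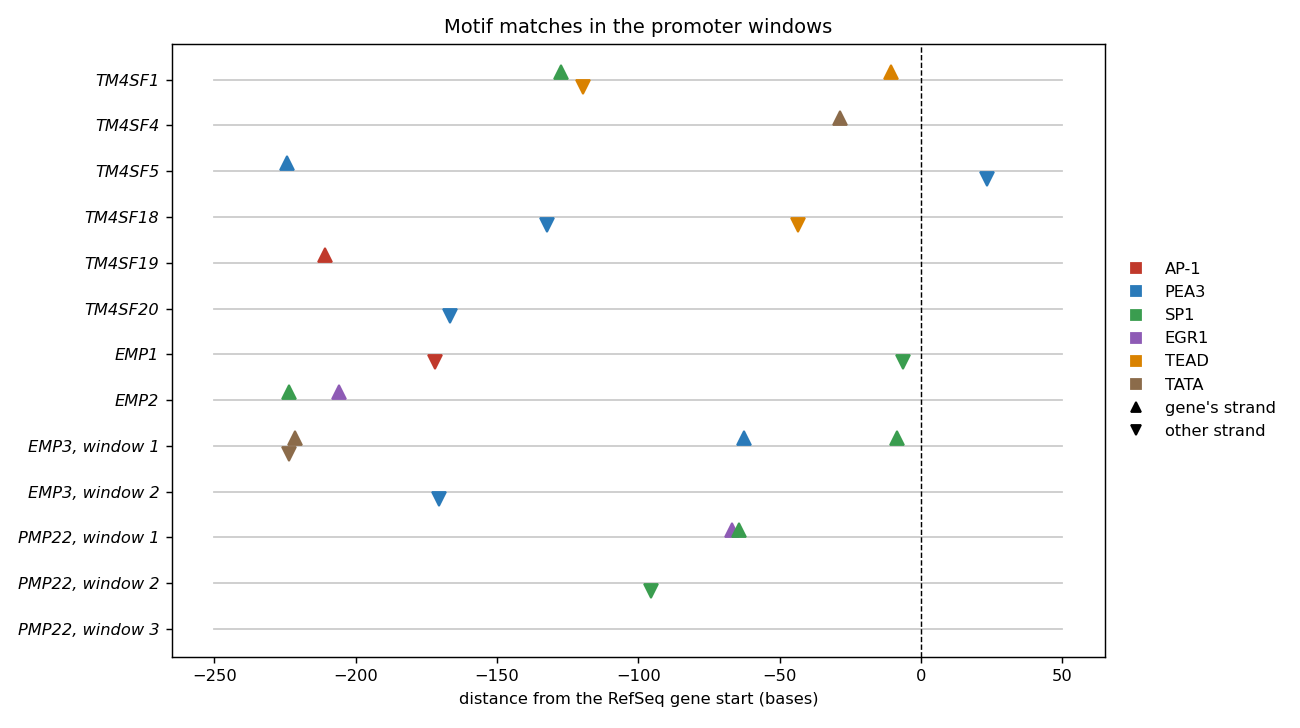
Motif matches in the 13 RefSeq promoter windows of the 10 genes, by distance from the gene start in bases (250 before to 50 after). Triangles pointing up are matches on the gene's strand and triangles pointing down on the other strand, with colours for motifs: AP-1 appears in TM4SF19 and EMP1, and TEAD in TM4SF1 and TM4SF18.

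The labelled cell type was checked with markers of HEK293 cells, of which VIM, KRT8, KRT18, PAX2 and NEFL were well above background on all 9 arrays and NEFM on 2 of 3 in each line. Of 8 endothelial markers, VWF, CDH5 and ESAM were well above background on all arrays, TIE1 and CLEC14A on none, PECAM1 on 2 K57N arrays alone, and TEK and KDR on 1 K57N array alone; their summed linear signal, relative to the 75th percentile, was 0.369 to 0.728 in WT cells, 0.384 to 0.679 in F53S cells and 0.392 to 0.607 in K57N cells. The osteoclast genes CALCR, DCSTAMP and OCSTAMP were not well above background on any array, while ACP5, CTSK and TNFRSF11A were on all, and the summed signal of these 6 was 0.407 to 0.460 in WT cells and 0.540 to 0.592 in K57N cells. Among Schwann cell markers, SOX10 and PRX were at background throughout, and among 7 gut and liver markers ALB, APOB and CDH17 were, while CDX2 and APOA1 were well above background on all arrays. Fibroblast markers summed to 0.846 to 1.42 in WT cells and 0.456 to 0.512 in K57N cells, and leukocyte markers to 0.886 to 1.68 and 0.995 to 1.17. The part of other cell types in these results was not tested. MAP2K1, which encodes MEK1, read 2.37 ± 0.04 (SD, n = 3) in WT cells, 2.45 ± 0.06 in F53S cells and 2.85 ± 0.06 in K57N cells with 1 probe; whether that probe reads the transgene is not given in the sources used here, so it does not check the labels.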

How the data were processed

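Single-colour Agilent arrays of 9 samples were read, 3 per line. The authors deposited scanner output of Agilent Feature Extraction 10.10.1.1, whose processed signal is a background-subtracted intensity on a linear scale, and a value table in log2, which equals log2 of that signal less a constant per array. Here log2 processed signal less each array's 75th percentile (over 58716 non-control spots) was used, flagged spots were left out and repeated spots of a probe were averaged. Probes that no line had well above background on each of its 3 arrays were left out. limma 3.58.1 in R 4.3.3 fitted 1 mean per line over all 9 arrays, with Benjamini-Hochberg adjustment over all 25397 probes. A check on simulated data had a pass condition for the fit with the slide only. A gene was represented by its tested probe with the highest mean signal. Probe positions are the files' (hg19), and 28173 probes were renamed by their transcript through RefSeq.

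The methods describe independent experiments, and arrays with the same replicate number deviated together (r of 0.35 to 0.88 over genes). The slides follow the replicate numbers, so this r cannot tell a pairing of the arrays from a shared slide. The 75th percentile was 245 to 376.25 on the first slide and 695 to 821 on the second, and 23711 to 29319 probes were well above background. The number of arrays limits the precision.

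The members, gene lists, markers and motifs were chosen with earlier results of these data known. Named are all members with all probes, MAP2K1, the 5 genes most like TM4SF1, TM4SF19 and EMP1, called genes of each list (at most 6 a comparison) and called genes within 250 kb. LIM2, TSPAN11, HPS3, SPNS2 and SMTNL2 are named outside that rule. Alternatives were normexp, quantile normalization, other filters, the mean of a gene's probes, pairs of lines alone, the replicate number or slide in the fit, the methods' t-test, the second slide alone, leaving out each array and the deposited log2 table.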

Additional observations from a re-analysis of the deposited data

How the results depend on the processing

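The 2 members called in K57N cells against WT cells, and the 2 against F53S cells, were EMP1 and TM4SF1 in every fit that left out 1 array (2 to 2 in each comparison), and F53S cells against WT cells gave 0 in every alternative. Asking for signal well above background on all 9 arrays dropped TM4SF1 from the genes tested and left 1 call, EMP1, in each comparison of K57N cells, and the methods' t-test after adjustment left 1 call against F53S cells, without TM4SF1, whose difference was the same 5.20. With the replicate number as a block the count was 3 against WT cells and 3 against F53S cells, the third being TM4SF19, as with the slide and on the second slide alone; the block changed no other call of a member. The count against WT cells was also 3 with the mean of a gene's probes. The share of all genes called was counted only in the fits without and with the slide, so the counts of the other fits have no share beside them. TM4SF1, TM4SF19 and EMP1 were chosen for the difference of K57N cells, so their calls in all these fits are a description. TM4SF1 and TM4SF19 passed the filter through the K57N arrays alone, and TM4SF19 read at background outside K57N cells. Signs turned only for uncalled differences. The mean of a gene's probes turned EMP2 in K57N cells against WT cells to -0.0115. Leaving out 1 array at a time, EMP2 ran from -0.0205 to 0.158 in that comparison and from -0.13 to 0.0482 in F53S cells against WT cells. EMP3 ran from -0.24 to 0.555 in F53S cells against WT cells, with the lowest value without F53S replicate 1, and from -0.0797 to 0.499 in K57N cells against F53S cells, and the readings of TM4SF19 in F53S cells against WT cells, all at background and so no measured difference, ran from -0.0843, without F53S replicate 1, to 0.95. Among the lists, TSPAN7 was not called with normexp. TSPAN11 was called lower with the slide (-1.03 against WT cells and -1.30 against F53S cells) and, against F53S cells, with the replicate number. In K57N cells against WT cells, LIM2 was called with the slide or replicate number in the fit, on the second slide alone and without WT replicate 1. Against F53S cells LIM2 was called only with the slide in the fit. The cause was not tested. No bound or difference can be had below the floor of signal over background, which was higher on the first slide.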
